A study of Mus musculus with 18 samples.

Results

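The comparison described here is that of cultured mouse neurons given 1 µM adaptaquin with untreated neurons, both without homocysteic acid (HCA), the glutamate analogue that the study used in other groups to cause oxidative death. It was chosen by the sample titles and holds 6 of the 18 arrays of the series, 3 with 1 µM adaptaquin and 3 without. The 18 arrays fall into 6 groups of 3, with 0, 0.1 or 1 µM adaptaquin, each without or with HCA. An array of the HCA-only group whose title calls it an outlier was left out, so that 17 arrays entered the fit and that group had 2. All groups are labelled as cultured neurons of the mouse, and the labels used here name no strain, age, culture day, vehicle or hours of treatment. The untreated group is labelled as having had no treatment, so a vehicle effect and an adaptaquin effect cannot be told apart. The title of the series names ATF4-dependent death and brain hemorrhage as its subject, and these 6 arrays answer a narrower question, namely what the compound did to neurons that were not under oxidative stress.

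Adaptaquin inhibits the prolyl hydroxylases that sense oxygen. These enzymes need iron and 2-oxoglutarate, and they hydroxylate hypoxia-inducible factor (HIF), which marks it for destruction by the VHL ubiquitin ligase. When they are inhibited HIF accumulates and switches on genes of glucose uptake, glycolysis, vessel growth and iron uptake. Another stress pathway is that of p53, a transcription factor that is held at a low level by Mdm2 and, once released, turns on genes of cell cycle arrest, DNA repair, restraint of growth signalling and cell death. ATF4 is a further stress-responsive transcription factor, translated when amino acids run short or proteins misfold, and its targets make and import amino acids.

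A gene was called where its adjusted p was under 0.05 in a linear model fitted with limma over all 8922 genes tested, with the replicate number as a block. Values are normalized log2 intensities of the brightest probe of each gene, so a difference of 1 is a doubling, and an intensity cannot be set against that of another gene. The labels do not say that replicates came from separate cultures, so the p-values measure the spread between these arrays, which may be technical. The 6 arrays had between 42.8% and 46.8% of their probes above background, with raw intensities whose 75th percentile ran from 360 to 535. Precision was limited by how many arrays there were.

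The identity of the cells was checked against fixed markers. Of 16 neuron markers with a probe 13 were detected on all 6 arrays, among them Tubb3, Map2 and Rbfox3, and Snap25, Nefl and Neurod6 were detected on none. Markers of other cells were present too: 7 of 12 astrocyte markers with a probe, 6 of 12 microglia markers and 12 of 14 markers of proliferating progenitors were detected on all 6 arrays. Of 15 vessel and fibroblast markers 9 were detected on none, including Pecam1, Col1a2 and Lum.

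With 1 µM adaptaquin 18 genes rose, which is 0.202% of those tested, and 3 fell, which is 0.0336%. Of the 18 rises, 8 were in a list of 35 targets of p53, and among them Cdkn1a, the p21 inhibitor of cyclin-dependent kinases, and Phlda3 had the largest values. The iron importer Tfrc, the growth signalling inhibitor Ddit4l and the detoxifying enzyme Ephx1 also rose. The 3 falls were those of Dcn, Mthfd2 and Arrdc4. The rises ran from 0.46 to 1.52 on the log2 scale with a median of 1.05, and the falls from -0.73 to -0.42, while the median difference of all genes was -0.0019. For Mapkapk3, counted among the 18, no untreated array was above background, so that its p was taken against background and the size of its rise is not known. In the authors' deposited table of log2 values, which has no background correction, all 18 rises were smaller, with values from 0.25 to 1.32 and a median of 0.66. Ephx1 was at 0.81 there, Dcxr at 0.73, Pqlc3 at 0.67 and Fas at 0.43, against 1.32 for Cdkn1a and 1.05 for Tfrc, and Mapkapk3, Psrc1, Dcn and Mthfd2 were not called in it. Without the replicate block 13 of the 18 rises and 0 of the falls were called (Fas, Gtse1, Zfp365, Psrc1 and Abhd4 were lost), and in a fit over the 6 arrays alone 2 rises were. Leaving out all arrays of replicate 1, 2 or 3 left 5, 3 and 7 called genes. All 21 kept their direction in each of these fits, but each had moved the same way in all 3 replicate pairs. A change of direction was therefore hardly possible. On the 6 arrays all 18 genes that rose were higher at 1 µM than on any untreated array, and all 3 that fell were lower, but so were 3.43% and 2.93% of all genes tested. Without a correction for the number of genes 222 genes were higher at p under 0.05 (2.49%) and 226 were lower (2.53%).

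The stretches before the transcription start of some genes that rose are shown first, since 4 of the 18 hold a match to the p53 half-site there. A promoter sequence was matched for 20 of the 21 called genes, all but Dcn. The motif was sought on both strands, in the 250 bases before each start in RefSeq promoter sequences of the GRCm38.p6 build, and 2216 of 27025 genes (8.2%) hold at least 1. The 4 genes are Cdkn1a, Ccng1, Ddit4l and Aen. Each sequence is printed 5′ to 3′ along the gene's own strand, with the matched letters in capitals. The Cdkn1a stretch (plus strand, chr17:29090729-29090978) holds 2 matches. The Ccng1 stretch (minus strand, chr11:40755287-40755536), the Ddit4l stretch (plus strand, chr3:137623422-137623671) and a shorter stretch of Aen (plus strand, chr7:78895927-78895956) hold 1 match each.
Cdkn1a: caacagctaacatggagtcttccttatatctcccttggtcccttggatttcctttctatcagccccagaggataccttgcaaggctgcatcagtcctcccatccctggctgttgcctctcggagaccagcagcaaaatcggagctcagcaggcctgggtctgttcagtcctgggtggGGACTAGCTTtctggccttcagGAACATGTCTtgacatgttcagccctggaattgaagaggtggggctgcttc
Ccng1: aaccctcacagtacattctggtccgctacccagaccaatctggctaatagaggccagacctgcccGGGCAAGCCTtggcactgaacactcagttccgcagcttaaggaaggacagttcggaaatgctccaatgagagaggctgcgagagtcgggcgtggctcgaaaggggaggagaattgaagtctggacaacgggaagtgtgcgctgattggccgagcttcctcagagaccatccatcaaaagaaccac
Ddit4l: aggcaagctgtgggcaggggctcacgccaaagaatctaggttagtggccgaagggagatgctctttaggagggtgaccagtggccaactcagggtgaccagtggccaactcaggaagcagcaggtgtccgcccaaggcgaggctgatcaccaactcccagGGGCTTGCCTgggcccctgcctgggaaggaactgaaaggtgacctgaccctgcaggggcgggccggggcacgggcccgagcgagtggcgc
Aen: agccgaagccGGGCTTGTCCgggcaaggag
The core of the HIF site, ACGTG, was found in the same window of 6 of the 18 genes, namely Abhd4, Aen, Fas, Mapkapk3, Tfrc and Zfp365, against 18.5% of all genes. Of these Tfrc is the one in the list of HIF targets, and its match lies within chr16:32608882-32608911 on the plus strand.
Tfrc: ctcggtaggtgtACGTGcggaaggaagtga
The core of the antioxidant response element, TGACNNNGC, was found in 3 of the 18, namely Ddit4l, Mapkapk3 and Sesn2, against 11.5% of all genes. In the window of Aen the p53 and HIF matches lie at different places, as do the p53 and antioxidant matches of Ddit4l. A match describes letters in this window, and binding was not measured.

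**Figure D1:**
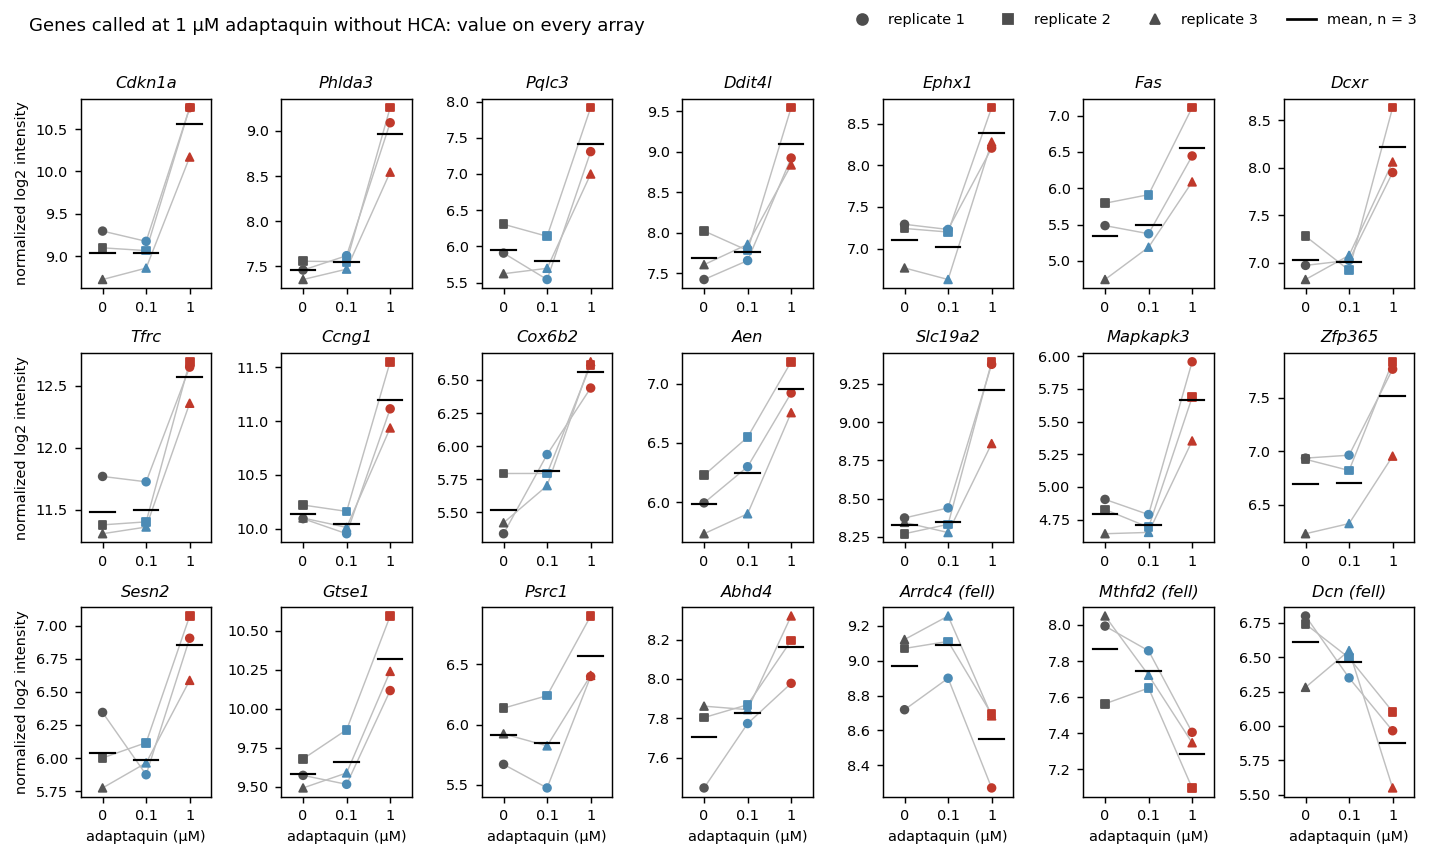
Normalized log2 intensity of the 21 called genes (vertical axes, each with its own range that does not start at 0) in neurons without HCA at 0, 0.1 and 1 µM adaptaquin (horizontal axes); symbols mark replicates 1, 2 and 3, grey lines join the same replicate number and black bars are means of 3 arrays. Untreated values of Mapkapk3 are background. In every panel the 3 arrays at 1 µM lie apart from the 3 untreated arrays, for Cdkn1a between 10.17 and 10.75 against 8.72 to 9.30.

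Cdkn1a, whose product halts the cell cycle, had the smallest p of all genes tested. On replicates 1, 2 and 3 Cdkn1a was at 9.30, 9.10 and 8.72 in untreated neurons and at 10.75, 10.75 and 10.17 with 1 µM adaptaquin. The lowest treated array lay well above the highest untreated one, and the third replicate was the lowest of each group. Cdkn1a rose by 1.52 ± 0.08 (SE; adjusted p = 8.8e-07), or 2.87-fold, and 2 further probes of the gene gave 1.50 and 1.21. Ccng1, which encodes cyclin G1, a partner of the phosphatase that feeds back on p53, was at 10.09, 10.22 and 10.10 without and 11.11, 11.55 and 10.94 with the compound. It rose by 1.06 ± 0.14 (adjusted p = 0.0028). Gtse1, a microtubule-binding protein that restrains p53 late in the cell cycle, was at 9.57, 9.68 and 9.49 against 10.12, 10.59 and 10.24, and rose by 0.74 ± 0.08 (adjusted p = 7.2e-04). Psrc1, a p53-regulated protein of the mitotic spindle, was at 5.67, 6.14 and 5.92 against 6.40, 6.90 and 6.41. It rose by 0.66 ± 0.10 (adjusted p = 0.015), and it was detected on all 6 arrays.

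Genes that cells use in p53-dependent death also rose. Phlda3, which blocks the membrane recruitment of the survival kinase Akt, was at 7.46, 7.56 and 7.35 in untreated neurons and at 9.09, 9.26 and 8.54 with 1 µM adaptaquin. Its untreated arrays differed little from each other, and it rose by 1.51 ± 0.11 (adjusted p = 4.1e-05), with a second probe at 1.24. That probe had an untreated mean of 5.20, below background, so its size is uncertain. Fas, the death receptor of the tumour necrosis factor receptor family, was at 5.48, 5.79 and 4.74 against 6.44, 7.11 and 6.09. Fas was low, above background on 1 of 3 untreated arrays and on 3 of 3 treated ones, and rose by 1.21 ± 0.14 (adjusted p = 0.0015). A second probe of Fas gave 0.70 ± 0.19 and did not pass when every probe was tested (adjusted p = 0.42). The untreated mean of that probe, 4.87, lay below background, so its size is uncertain. Aen, a nuclease that p53 induces during apoptosis, was at 5.99, 6.23 and 5.73 against 6.92, 7.19 and 6.76. It rose by 0.97 ± 0.15 (adjusted p = 0.017), and was above background on 2 of 3 untreated arrays. Its 2 other probes gave 0.69 and 0.37, and neither passed. Their untreated means, 5.37 and 5.51, lay below background.

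**Figure D2:**
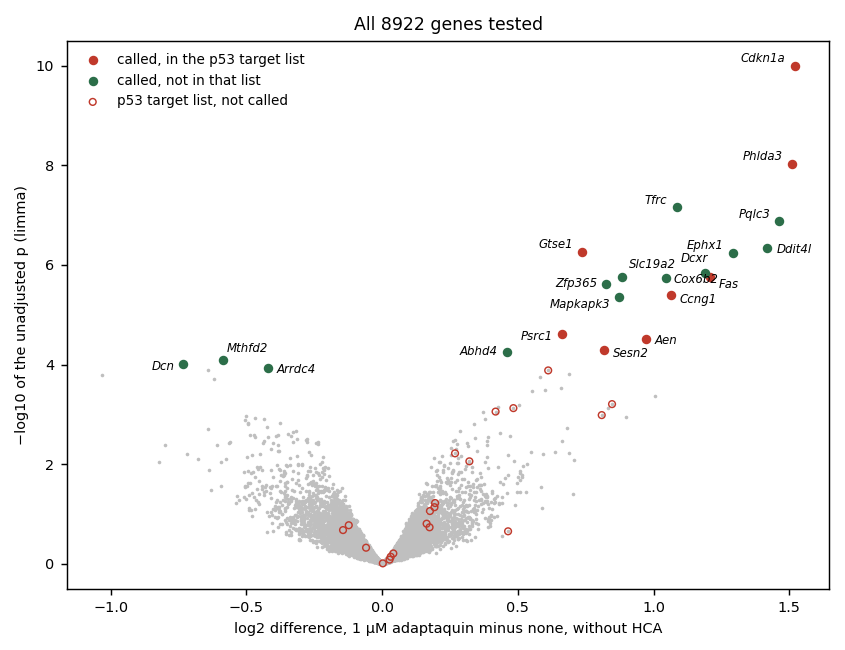
Log2 difference between 1 µM adaptaquin and no treatment (horizontal axis) against −log10 of the unadjusted p from limma (vertical axis) for all 8922 genes tested, 1 point each; filled points are the called genes and open circles the p53 targets that were not called. Called rises reach 1.52, called falls -0.73, and 25 of the 28 p53 targets lie right of 0.

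Of the 35 listed p53 targets 28 were tested, 8 rose (28.6%) and none fell, with a median of 0.37. At an unadjusted p under 0.05, 15 of the 28 were higher and 0 lower, against 2.49% and 2.53% of all genes. For 15 all treated arrays lay above all untreated ones, against 3.43% of all genes. The list was chosen with earlier results of these data known, so its count is no independent evidence of its direction. The count was 5 without the replicate block, 1 in the fit over the 6 arrays alone, and 5 without untreated replicate 3, without 1 µM replicate 1 or without 1 µM replicate 2. It was 2 without all arrays of replicate 1, 2 or 3. The medians of the 3 replicate pairs were 0.37, 0.34 and 0.35, so no single pair carried the list. Targets in the death branch other than Phlda3, Fas and Aen did not pass. For Pmaip1, the BH3-only death protein Noxa, no untreated and 2 treated arrays were above background. The mean of its treated arrays gave a bound of at least 1.15-fold, but that mean includes a value below background. The groups of Pmaip1 overlapped, and it did not pass (adjusted p = 0.17). Bbc3, the BH3-only protein Puma, was at 9.94, 9.93 and 10.09 against 10.26, 10.48 and 10.48. Those groups did not overlap, yet the difference of 0.42 ± 0.10 did not pass (adjusted p = 0.21). Of the 28 values 25 were above 0 and 3 below, against 4400 and 4521 of all 8922 genes. Among further targets that did not pass, Polk was at 0.61 (adjusted p = 0.051). Pidd1, Zmat3 and Trp53inp1 were among those higher at an unadjusted p under 0.05. Some targets were nearer to 0: Mdm2, the ligase that degrades p53, was at 0.18 ± 0.10 with a 95% interval from -0.03 to 0.38. Sesn1, the sestrin known as a p53 target, was at -0.06 with an interval from -0.23 to 0.12. Ddb2, a DNA damage sensor, was at 0.00 and Rrm2b, a ribonucleotide reductase subunit, at -0.14. The gene of p53 itself, Trp53, and Bax, Gdf15 and Tp53i11 had no named probe, and Btg2, Eda2r and Perp did not pass the filter on dim probes.

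Beside the p53 targets, genes that act directly on the cell cycle and on death were counted as separate lists. None of 30 tested genes of the cell cycle and DNA replication passed, and their median was -0.062. Of the 30 values 24 were below 0, against 4521 of all 8922 genes. The mitotic kinase gene Plk1 had the lowest value, -0.31 ± 0.09 (adjusted p = 0.41). Every one of the 30 had a 95% interval within 1 log2 unit of 0, as did 8858 of all 8901 genes not called. Of 25 tested genes of the Bcl2 family and cell death, Fas alone passed, and the list's median was 0.020. That list shares Fas, Bbc3, Pmaip1 and Apaf1 with the p53 list. Apaf1, the core of the apoptosome, was at 0.27 (adjusted p = 0.53).

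A pair of the genes that rose encode brakes on mTORC1, the kinase complex that drives growth. Ddit4l, also called REDD2, was at 7.42, 8.02 and 7.60 in untreated neurons and at 8.92, 9.54 and 8.83 with 1 µM adaptaquin. It rose by 1.42 ± 0.15 (adjusted p = 7.2e-04), or 2.67-fold. Sesn2, a stress-induced sestrin that senses leucine, was at 6.34, 6.001 and 5.77 against 6.91, 7.07 and 6.59. It rose by 0.82 ± 0.14 (adjusted p = 0.027), with the lowest treated array 6.59 above the highest untreated one, 6.34. Sesn2 was above background on 2 of 3 untreated arrays, and it is on the p53 list and also on the ATF4 list. Ddit4, the related gene that hypoxia and ATF4 induce, was at 0.25 and did not pass (adjusted p = 0.55).

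Tfrc, the transferrin receptor that brings iron into cells, was the one gene to pass both in the HIF list and in the iron list. It was at 11.77, 11.38 and 11.30 in untreated neurons and at 12.65, 12.69 and 12.36 with the compound. Tfrc rose by 1.08 ± 0.10 (adjusted p = 2.1e-04), or 2.12-fold, and a second probe gave 0.99. Tfrc messenger RNA is known to be stabilized by iron regulatory proteins when iron is short and to be transcribed by HIF. Of 24 tested iron genes the median was -0.012 and none fell. Slc11a2, the divalent metal transporter, was at 6.81, 7.04 and 6.72 against 7.29, 7.17 and 7.10. Its groups did not overlap, but its difference of 0.33 ± 0.12 did not pass (adjusted p = 0.69). The storage protein gene Fth1 (-0.03, 95% interval -0.18 to 0.12) and the iron regulatory protein genes Ireb2 (-0.16) and Aco1 (-0.26) did not pass either. The probe of Ftl1, the other storage protein gene, was not above background on any of the 6 arrays, so it gave no value. None of 12 tested genes of metallothioneins and zinc transport passed, with a median of -0.064.

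The other measured targets of HIF did not pass. Of 33 tested targets 1 rose, which is 3.03%, none fell, and the median was 0.024. At an unadjusted p under 0.05, 6 of the 33 were higher and 0 lower, against 2.49% and 2.53% of all genes. Vegfa, the vascular growth factor, was at 9.63, 9.33 and 9.31 in untreated neurons and at 9.53, 8.93 and 9.29 with 1 µM adaptaquin. Those groups overlapped, and the difference of -0.17 ± 0.10 had a 95% interval from -0.39 to 0.04. Slc2a1, the glucose transporter GLUT1, was at 0.08 (95% interval -0.19 to 0.34). Egln3, a prolyl hydroxylase that HIF itself induces, was at -0.14 (95% interval -0.40 to 0.12), and its sister enzymes Egln1 and Egln2, which are targets of the compound, were at -0.04 and 0.09. The glycogen synthase gene Gys1 was at 0.59 ± 0.18 (adjusted p = 0.54), and the heme oxygenase gene Hmox1 at 0.52 ± 0.19 (adjusted p = 0.76), and both overlapped between the groups. Gys1 was above background on 1 of 3 untreated arrays and on 2 of 3 treated ones. For each of the 32 HIF targets that were not called the 95% interval lay within 1 log2 unit of 0, the highest bound being 0.98. The same held for 8858 of all 8901 genes not called, so it is no trait of this list. Bnip3 was among the 8 targets that did not pass the filter on dim probes.

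No gene of the oxygen-sensing machinery or of related enzymes passed. Of 12 tested genes of the HIF pathway core Hif1a had the lowest value, -0.25 ± 0.18, and the 95% intervals of the 12 reached from -0.64 to 0.44. The 20 tested genes of other 2-oxoglutarate dioxygenases include the histone demethylases and the collagen hydroxylases. Their values ran from -0.13 to 0.17 with a median of 0.054, and their 95% intervals reached from -0.64 to 0.62.

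Enzymes of detoxification and metabolism made up a further part of the rises. Ephx1, the microsomal epoxide hydrolase, was at 7.29, 7.24 and 6.77 in untreated neurons and at 8.21, 8.69 and 8.28 with the compound, and rose by 1.29 ± 0.14 (adjusted p = 7.2e-04). Dcxr, a reductase of dicarbonyls and sugars, was at 6.97, 7.28 and 6.82 against 7.95, 8.63 and 8.06, and rose by 1.19 ± 0.14 (adjusted p = 0.0015). Dcxr had a second probe, which gave 1.21. Ephx1 is also on the list of targets of NRF2, the transcription factor of the antioxidant response. It was the 1 gene of 26 tested there that rose, and the list's median was -0.043. The quinone reductase gene Nqo1, the usual marker of NRF2, was at -0.24 ± 0.18 with a 95% interval from -0.63 to 0.16.

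Slc19a2, a transporter of the vitamin thiamine, was at 8.37, 8.27 and 8.34 against 9.38, 9.40 and 8.86. Its 3 untreated values were close together, and it rose by 0.88 ± 0.10 (adjusted p = 0.0015). Cox6b2, a subunit of cytochrome c oxidase known from testis, was at 5.34, 5.79 and 5.42 against 6.44, 6.61 and 6.64. It rose by 1.05 ± 0.13 (adjusted p = 0.0015), and was above background on 1 of 3 untreated arrays. None of 44 tested genes of the respiratory chain list, which does not hold Cox6b2, passed, and their median was 0.0045. Abhd4, a hydrolase that forms precursors of N-acylethanolamines, had the smallest rise. It was at 7.45, 7.80 and 7.86 against 7.98, 8.19 and 8.32, and rose by 0.46 ± 0.08 (adjusted p = 0.027). Abhd4 lay outside the rule for naming genes and was added after its values were seen.

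Of the remaining genes that rose, Pqlc3, which encodes a membrane protein with PQ-loop repeats, was at 5.91, 6.31 and 5.62 in untreated neurons and at 7.31, 7.92 and 6.999 with 1 µM adaptaquin. It rose by 1.46 ± 0.14 (adjusted p = 2.9e-04), and was above background on 2 of 3 untreated arrays. Pqlc3 had 2 further probes at 0.88 and 0.80, and the first of these did not pass when every probe was tested (adjusted p = 0.12). Their untreated means of 5.18 and 5.08 lay below background, so those sizes are uncertain. Zfp365, a zinc finger protein, was at 6.94, 6.92 and 6.23 against 7.77, 7.84 and 6.95. It rose by 0.83 ± 0.10 (adjusted p = 0.0018), and replicate 3 was the lowest array of both groups. Mapkapk3, a kinase downstream of p38, was at 4.90, 4.83 and 4.64 against 5.96, 5.69 and 5.35. It was not well above background on any untreated array and was above it on 2 treated ones. Its adjusted p was 0.0028, but the bound is at least 1.00-fold, which gives no size to the rise.

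The 3 genes that fell have different roles. Dcn encodes decorin, a proteoglycan of the extracellular matrix and a marker of fibroblasts, and was at 6.80, 6.74 and 6.28 in untreated neurons and at 5.97, 6.10 and 5.55 with 1 µM adaptaquin. It fell by 0.73 ± 0.13 (adjusted p = 0.044), and was above background on 3 of 3 untreated arrays and on 2 of 3 treated ones. A second probe of Dcn was at -0.03, but its means of 4.92 and 4.89 lay below background, so it could not show a fall. Dcn was the 1 gene that passed of 6 tested vessel and fibroblast markers, whose mean level was 7.61 to 8.18 on untreated arrays and 7.61 to 8.15 on treated ones. In bulk RNA fewer cells of a type and less RNA per cell cannot be told apart. Mthfd2, a mitochondrial enzyme of folate metabolism and a target of ATF4, was at 7.99, 7.56 and 8.05 against 7.40, 7.10 and 7.35. It fell by 0.59 ± 0.10 (adjusted p = 0.037). Arrdc4, an arrestin-like adaptor whose transcription follows glucose, was at 8.72, 9.07 and 9.12 against 8.27, 8.69 and 8.68. It fell by 0.42 ± 0.08 (adjusted p = 0.0498), at the threshold itself. Just outside the threshold lay Polk, a translesion DNA polymerase on the p53 list, at 0.61 and Ldoc1 (both adjusted p = 0.051). They were followed by Tec (adjusted p = 0.056) and Nupr1 at -1.03 (adjusted p = 0.057). Ldoc1 was not above background on any 1 µM array and Tec on no untreated one, so their sizes are not given. The size for Nupr1 is uncertain, since its lowest treated value lay below background.

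Mthfd2 was not alone among the ATF4 targets in having a negative value. Of 33 tested targets of ATF4 and CHOP, Mthfd2 fell and Sesn2 rose, which is 3.03% in each direction. The median was -0.14, and 25 values were below 0, against 4521 of all 8922 genes. At an unadjusted p under 0.05, 9 were lower and 2 higher, against 2.53% and 2.49% of all genes. Like the p53 list, this list was chosen with earlier results of these data known. Its counts are therefore no independent evidence of its direction. The medians of the 3 replicate pairs were -0.17, -0.14 and -0.10. Nupr1, a stress-induced nuclear protein, had the lowest value of all 8922 genes, with 6.78, 7.03 and 6.09 in untreated neurons and 5.51, 6.39 and 4.89 with the compound. Its treated value on replicate 3, 4.89, lay below background and that on replicate 1, 5.51, near it, so the size of its difference is uncertain. Within each replicate number Nupr1 was lower with adaptaquin, but replicate 2 of the treated group overlapped replicate 3 of the untreated group. Slc7a11, the cystine importer, was at 5.75, 6.08 and 6.06 against 5.04, 5.76 and 5.17, a difference of -0.64 ± 0.16 that did not pass (adjusted p = 0.33). The treated values 5.04 and 5.17 lay below background, so that size is uncertain too. Chac1, an enzyme that degrades glutathione, was at -0.27 ± 0.08 (adjusted p = 0.51). Slc7a3, an importer of cationic amino acids, was at -0.38 (adjusted p = 0.82). The transcription factors themselves were near 0, Atf4 at -0.06 ± 0.16 and Ddit3, which encodes CHOP, at 0.10 ± 0.12. None of 18 aminoacyl-tRNA synthetases passed (median -0.066), and none of 15 endoplasmic reticulum chaperones did (median -0.12, with 14 values below 0).

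**Figure D3:**
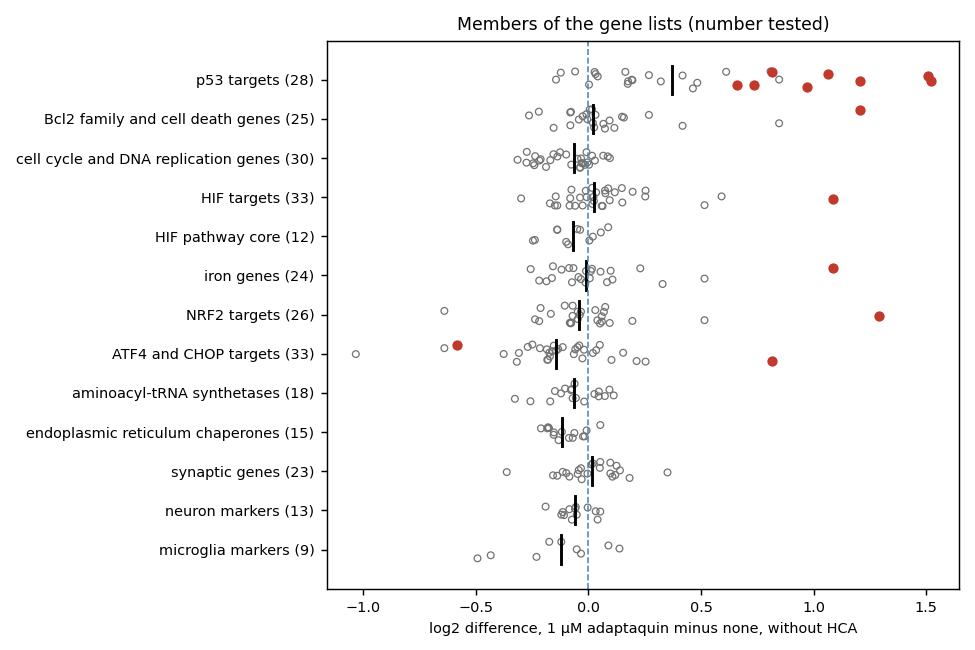
Log2 difference between 1 µM adaptaquin and no treatment (horizontal axis) for each tested member of 13 gene lists (rows, with the number tested); filled points are called genes, open points genes not called, black bars list medians and the dashed line the median of all genes, -0.0019, while vertical scatter within a row has no meaning; some open points, such as Pmaip1 and Ftl1, rest on arrays below background. The p53 row has a median of 0.37 and holds 8 filled points, and the ATF4 and CHOP row has a median of -0.14 with 1 filled point on each side.

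No member of the other lists of neuronal function and housekeeping passed. This held for 23 tested synaptic genes (median 0.014), 19 ion channel genes (-0.020) and 20 immediate early genes (-0.015). It also held for 16 heat shock genes (-0.018), 14 glycolysis enzymes (0.037), 17 cholesterol synthesis genes (-0.018) and 11 interferon genes (-0.011). None of 29 ribosomal protein genes (-0.0053), 21 ribosome biogenesis genes (-9.2e-05), 27 proteasome subunits (-0.021) and 27 genes of lysosomes and autophagy (0.033) passed. In these 11 lists every member had a 95% interval within 1 log2 unit of 0, as did 8858 of all 8901 genes not called.

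Marker genes of cell types were compared between the groups as well. The mean level of the tested microglia markers was 6.80 to 6.96 on untreated arrays and 6.70 to 6.72 with 1 µM adaptaquin, a difference of -0.15 without overlap. None of the 9 markers passed by itself. The lowest values were those of Cx3cr1 at -0.49 and C1qa at -0.43, and neither gene was detected on all 6 arrays. Of the 9 values 7 were below 0 and 2 above, those of Fcer1g at 0.14 and Tyrobp at 0.09. In order of replicate number, the medians of the pairs were -0.30, -0.03 and 0.0018. Whether microglia had a part in any of the changes was not tested. The mean levels of the other 7 marker lists overlapped between the groups, that of neurons lying between 10.63 and 10.78 on untreated arrays and between 10.56 and 10.73 on treated ones. No tested marker of neurons (13 genes), GABAergic neurons (8), astrocytes (10), oligodendrocytes (6) or proliferating progenitors (12) passed.

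The lower dose, 0.1 µM, is the nearest comparison. At 0.1 µM no gene passed against untreated neurons (limma), and 95 genes were higher (1.06%) and 101 lower (1.13%) at an unadjusted p under 0.05. Cdkn1a was at 9.18, 9.07 and 8.86 at 0.1 µM, within the range of the untreated arrays, with a difference of -0.01 ± 0.08. Tfrc was at 11.72, 11.40 and 11.36, and Phlda3 at 7.62, 7.55 and 7.47. The 18 genes that rose at 1 µM had a median of 0.0089 at 0.1 µM, ranged from -0.15 to 0.29, and 10 of them were above 0. The highest of these was Cox6b2 at 0.29 ± 0.13, followed by Aen at 0.27 ± 0.15, and neither passed.

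Tested directly, 18 genes were higher at 1 µM than at 0.1 µM (0.202%) and 3 were lower (0.0336%), and at an unadjusted p under 0.05 the counts were 247 (2.77%) and 241 (2.7%). That test uses the same 1 µM arrays as the comparison with untreated neurons, so the 2 sets of calls are not independent. Of the 18 genes called against untreated neurons 16 also passed between the doses, all except Aen and Abhd4, and of the 3 falls Arrdc4 did. Cdkn1a differed by 1.53 ± 0.08 (adjusted p = 8.4e-07), Pqlc3 by 1.61 ± 0.14 (adjusted p = 1.3e-04) and Tfrc by 1.07 ± 0.10 (adjusted p = 1.8e-04). Between the doses 17 of the 18 had all 1 µM arrays above all 0.1 µM arrays, but the genes had been called for high values on those same 1 µM arrays. The share of all genes with that order is not given here, so the count has no weight of its own. Passing between the doses alone were the DNA polymerase gene Polk (0.73 ± 0.11, adjusted p = 0.014) and Ass1, which makes argininosuccinate (0.73 ± 0.13, adjusted p = 0.049), both higher at 1 µM. Cpne4 (-0.49) was lower, as was Ldoc1, which had no 1 µM array above background. These 4 were named after their values were seen.

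**Figure D4:**
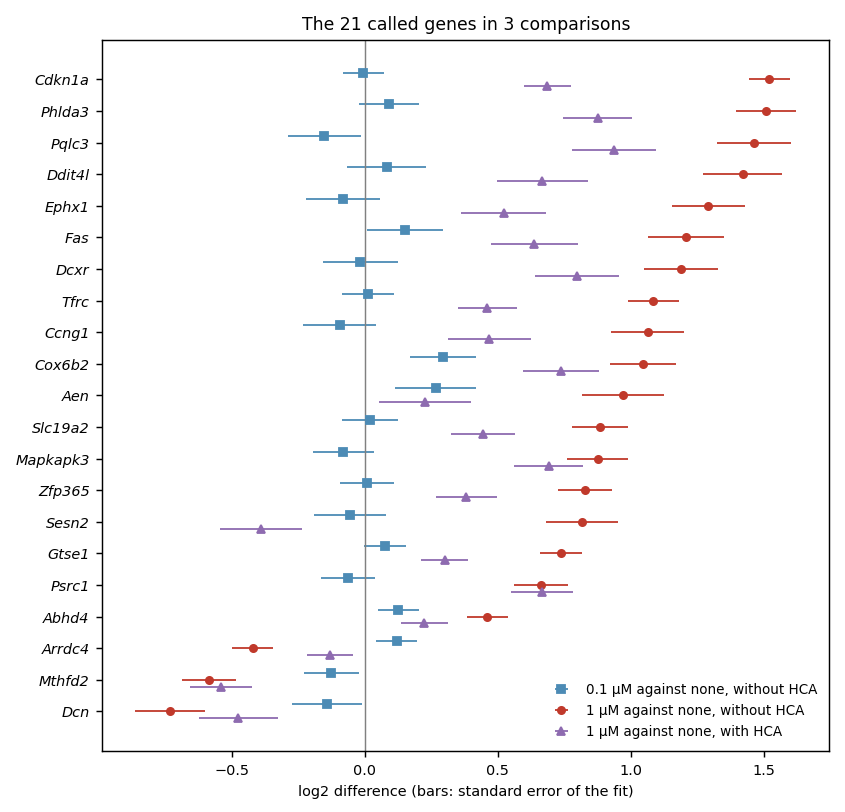
Log2 difference with its standard error (horizontal axis, points and bars) for the 21 called genes (rows; Mapkapk3 was below background without adaptaquin) in 3 comparisons: 0.1 µM against none without HCA (squares), 1 µM against none without HCA (circles) and 1 µM against none with HCA (triangles). The squares of the genes that rose lie between -0.15 and 0.29, their circles between 0.46 and 1.52, and their triangles between -0.39, for Sesn2, and 0.94, for Pqlc3.

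In neurons given HCA the same dose was compared over 3 arrays with and 2 without adaptaquin. Cdkn1a alone passed there, 0.0112% of genes, rising by 0.69 ± 0.09 (adjusted p = 0.038), while 251 genes were higher (2.81%) and 208 lower (2.33%) at an unadjusted p under 0.05. It was at 9.79 and 9.71 with HCA alone and at 10.41, 10.48 and 9.99 with HCA and adaptaquin. Within each replicate number the level with HCA and adaptaquin was below that with adaptaquin alone, and the level with HCA alone was above that of untreated neurons. Of the 18 genes that rose without HCA 17 had positive values with it, with a median of 0.58 against 0.0086 for all genes. Sesn2 was the exception, at 8.06 and 7.94 with HCA alone and at 7.42, 7.72 and 7.53 with HCA and adaptaquin, a difference of -0.39 ± 0.15 (adjusted p = 0.94). The 28 p53 targets had a median of 0.20 with HCA, and the 33 ATF4 targets one of -0.20. Mthfd2 was at -0.54 ± 0.12 with HCA, close to its value without, but did not pass there (adjusted p = 0.35).

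Whether the effect of 1 µM adaptaquin differed with HCA was tested as an interaction. No gene passed by limma, and 178 genes were positive (2%) and 155 negative (1.74%) at an unadjusted p under 0.05. Of the 18 genes that rose 17 had a negative interaction, that is a smaller difference with HCA, and 13 had an unadjusted p under 0.05. Cdkn1a came nearest, at -0.83 ± 0.12 (adjusted p = 0.094). It passed when the array titled an outlier was included (-0.93 ± 0.13, adjusted p = 0.043) and in the authors' deposited table of log2 values (-0.72 ± 0.10, adjusted p = 0.0097), and over all alternatives its adjusted p ran from 0.0097 to 1.00. For Sesn2 the interaction was -1.21 ± 0.21 (adjusted p = 0.29). The interaction shares the 6 arrays on which these genes were called, so the sign of their interactions is no independent evidence.

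How firmly each call rests on single arrays was examined by leaving out each of the 6 arrays in turn. Of the 18 genes that rose 14, Mapkapk3 among them with its untreated arrays below background, were called each time, the exceptions being Aen, Sesn2, Psrc1 and Abhd4, and none of the 3 falls was. The adjusted p of Cdkn1a stayed between 5.1e-06 and 2.3e-05, and its difference between 1.47 and 1.58. Aen kept its call only without untreated replicate 2 (adjusted p = 0.038), and Psrc1 only without 1 µM replicate 3 (adjusted p = 0.0087). Sesn2 kept it without untreated replicate 1 (adjusted p = 0.0079) and without 1 µM replicate 3 (adjusted p = 0.027), and lost it without any of the other 4, where the highest was 0.19. Dcn kept it only without untreated replicate 3 (adjusted p = 0.049), with values up to 0.28 otherwise. Abhd4 (0.071 to 0.22), Mthfd2 (0.082 to 0.24) and Arrdc4 (0.16 to 0.28) lost it whichever array was left out. The differences kept their sign each time, which the lack of overlap between the groups made nearly certain. Those of Sesn2 lay between 0.71 and 0.98 and those of Dcn between -0.84 and -0.63.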

How the data were processed

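Total RNA was extracted with Trizol and a column with DNase I and turned into biotinylated cRNA for Illumina bead arrays, per the labels' protocols. The authors deposited probe intensity values of 18 arrays that were not normalized between arrays, and beside each intensity the detection p-value of that probe. Log2 values of 17 arrays form another table that the authors deposited. These equalled a quantile normalization of the log2 intensities to within 5e-09, with a median of 7.37 in each column. For scanning and earlier filters the software is not given in the sources used here.

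The neqc function of limma 3.58.1 (R 4.3.3) removed background with the help of the detection p-values, added an offset of 16 and quantile-normalized the 18 arrays. The platform annotation gave 1 gene symbol for 23978 and none for 1719 of 25697 probes, and 23962 matched RefSeq genes of GRCm38.p6. A probe had to be detected at p under 0.01 on 2 or more of the 17 arrays (12227 probes with a symbol), and the brightest probe was taken for each of 8922 genes. A linear model with a coefficient for each group and for replicate number was fitted with limma (9 residual and 3.49 prior degrees of freedom), and two-sided p-values were adjusted for each comparison by itself (Benjamini-Hochberg, threshold 0.05). The analysis was tested on simulated data.

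The labels give all groups the replicate numbers 1 to 3. Deviations from the group means correlated with r from 0.24 to 0.63 in each of 40 pairs of arrays with the same number and from -0.46 to 0.06 in 80 pairs with different numbers, so the numbers were taken to pair the arrays. For untreated and 1 µM arrays r was 0.45 to 0.56. The labels do not say what the arrays of a number share.

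For a probe below background on all arrays of a group the text gives a bound (at least N-fold) measured against the dimmest level detected on those arrays. The rule for naming genes covered the 15 largest called rises and falls of genes that moved the same way in all 3 pairs, and every called member of a list. It also covered up to 4 members of each list with the largest change, and 29 fixed genes of the p53, iron, HIF, oxidative and ATF4 responses. Not every gene under the rule is named in the text. Some further list members are given as values and were chosen after seeing them. The comparison, the 32 gene lists and the rule were chosen with earlier results of these data known. Alternatives were the fit without the replicate block, with the titled outlier, with the authors' log2 table, with median scaling, without the filter, with the mean of a gene's probes, over the 6 arrays alone, with an intensity trend, over single probes, and without arrays in turn.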

Additional observations from a re-analysis of the deposited data

How the results depend on the processing

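Without a replicate block, 13 genes were called between 1 µM adaptaquin and none (13 rises, 0 falls) in place of 21, 11 in place of 21 between the doses, and 0 in the interaction. In the fit over the 6 arrays alone 2 genes were called, with fewer arrays to estimate the spread. Leaving out arrays gave 3 to 19 genes for 1 µM against none, 1 to 17 between the doses and 0 in the interaction. The lowest counts came from leaving out all arrays of a replicate number, with 5, 3 and 7 genes against none and 4, 1 and 7 between the doses for numbers 1, 2 and 3, where fewer arrays entered the fit. With the titled outlier or with the authors' log2 table the interaction had 1 gene, Cdkn1a, in place of 0, and the cause was not tested. Under the other settings 17 to 29 genes were called against none, 29 being the count when every probe was tested by itself. That alternative, and the omission of arrays with HCA, were chosen after seeing the data. All 21 genes kept their sign under all 17 alternatives, but these reuse the arrays on which the genes were called and on which their groups did not overlap. A change of sign was therefore hardly possible. Cdkn1a was called under all 17, Phlda3 and Pqlc3 under 16, Tfrc under 15, Dcn under 4, and Abhd4, Arrdc4 and Mthfd2 under 3. The p53 list had a median of 0.25 to 0.40 and 1 to 10 called members. Median scaling moved the median of all genes to -0.077. Without background correction, in the authors' log2 table, all 18 rises were smaller and their median was 0.66 in place of 1.05.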
